A study of Mus musculus with 63 samples.

Results

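Collagen genes encode the chains of the triple-helical proteins that make up most of the extracellular matrix. The members were taken by name alone, as every symbol made of COL, a number, the letter A and a number, and 44 of the 20306 genes in the table fit that form. They were described in 7 classes: 8 chains of the islet basement membrane (types IV, XV and XVIII), 11 fibrillar chains, 6 beaded filament chains of type VI, 9 fibril-associated chains, 4 transmembrane chains, 4 network and anchoring chains and 2 others. RNA was sequenced from β cells that carry a red fluorescent reporter (Cherry/+) switched on by an insulin promoter Cre (Ins2-Cre/+). The cells were sorted as mCherry positive from islets, so any cell that carried the reporter or stuck to one that did could enter a library.

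The 63 libraries fall into 9 groups. The ICR strain gave 4 fetal libraries at E18.5, 3 at postnatal day 1 (P1), 3 at day 7 (P7), 5 at day 10 (P10) and 21 from adults of 84 to 364 days with glucose between 103 and 190 mg/dl. NOD-ICR mice, which carry the NOD background prone to autoimmune diabetes, gave 7 non-diabetic libraries (T1ND, 82 to 212 days) and 4 diabetic ones (T1D, 98 to 150 days). Glucose was 108 to 245 mg/dl in T1ND, and in T1D it was 311 to 358 mg/dl with 1 reading above 600. BTBR mice with 1 mutant copy of the leptin gene (Ob/+, T2H) gave 9 libraries at 53 to 179 days with glucose of 103 to 271 mg/dl. Obese Ob/Ob mice, labelled as BTBR or a mix (T2D), gave 7 at 58 to 78 days with glucose of 408 to 534 mg/dl and 5 readings above 600. In T2H and T2D, 2 libraries each carried 2 copies of the Cre allele, and every other library carried 1. The strain label differs between T2D and T2H, and NOD-ICR and BTBR differ from ICR in strain as well as in health, so these cannot be told apart.

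Type IV collagen forms the sheet-like network of basement membranes, and its commonest protomer joins 2 α1 chains (Col4a1) with 1 α2 chain (Col4a2). Types XV and XVIII are proteoglycans of the same membranes. Fibrillar collagens are cables: type I is built from Col1a1 and Col1a2, type III from Col3a1 alone, and type V (Col5a1, Col5a2, Col5a3) co-assembles with type I. Type VI forms beaded filaments at the border of basement membrane and interstitial matrix, from Col6a1, Col6a2 and 1 further chain that can be Col6a3, Col6a4, Col6a5 or Col6a6. In the mouse islet the basement membrane lies along capillaries and is known to be made largely by endothelial cells, while fibrillar collagen is a product of fibroblasts and related stromal cells.

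Col4a1 (chromosome 8, 11198423 to 11312889 in GRCm38.p6, minus strand) and Col4a2 (11312805 to 11449287, plus strand) lie head to head, and the stretch between their annotated starts is shown because the pair is read side by side throughout the results. It comes from RefSeq, chr8:11312801-11312830, plus strand of GRCm38.p6, and the capitals mark the 22 bases from the Col4a2 start to the Col4a1 start, both counted. The Col4a1 start is that of the RefSeq promoter window, which lies inside the full extent of the gene given above.

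Col4a1 and Col4a2 starts: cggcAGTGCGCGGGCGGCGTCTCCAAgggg

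In the GENCODE annotation the exons of the pair overlap over these 22 bases, out of 7464 exon bases of Col4a1. The libraries keep no strand, so reads there cannot be told apart. In the 250 bases before the annotated starts, the letters GGGCGG stood on either strand in 22 of 38 collagen windows (57.9%, 35 genes) and in 32.7% of all 32851 windows. CCAAT stood in 34.2% of collagen windows and 33.8% of all, TATAAA in 13.2% and 12.4%, and TAATTA in 5.26% and 4.84%. Col4a1 and Col4a2 windows both held CCAAT and neither held TATAAA. A match is a string of letters and not a binding site.

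Libraries held 23894167 to 73839270 expected counts (median 36444826), so 3 counts correspond to 0.0406 to 0.126 CPM, that is, expected counts out of 1000000 in the same library, and values below that are close to nothing. Insulin and amylin genes (Ins2, Ins1, Iapp) led the β cell list in every group. Before any comparison, 4 libraries have to be set apart: P1 replicates 2 and 3 and P7 replicates 1 and 2. A list of 14 stromal genes that holds no collagen, led there by Dcn, Acta2 and Lum, took 0.304 to 0.612% of their counts. In the other 59 libraries it took at most 0.0292%. Endothelial markers took 0.0652 to 0.114% of the counts in these 4 and at most 0.0125% in the rest. The 4 libraries are called the high-stroma libraries below, and the comparisons that use them are also given without them. In RNA from a whole sorted pool, a change in the number of cells of a type and a change in RNA per cell cannot be told apart.

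Collagen RNA was scarce in β cell libraries of low stroma. All 44 genes together took a median of 0.0566% of counts at E18.5 and 0.0235% at P10. The adult medians were 0.0110% for ICR, 0.0110% for T2H, 0.00804% for T1ND, 0.00703% for T2D and 0.00446% for T1D. At P1 and P7 the medians were 1.48% and 1.41%, and those medians sit in high-stroma libraries. Of the 44 genes, 23 were higher in each of the 4 high-stroma libraries than in all 59 others, and 19 stayed under 5 CPM in all 59. The same counts were not made over all genes, so these have no share to be read against. The median over the 59 libraries reached 1 CPM for 10 genes.

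Compared per kilobase of transcript, the leading chains changed with age. Col4a1 led at E18.5 with a mean of 21.3 CPM per kb, followed by Col6a3 (14.55), Col3a1 (13.1) and Col9a2 (12.3). Col3a1 led at P1 (984 CPM per kb) and P7 (1024), and Col4a1 again at P10 (12.2). In the low-stroma library of each age, Col3a1 and Col4a1 were close, at 38.9 and 35.7 CPM per kb at P1 and 23.15 and 20.1 at P7. In ICR adults Col6a3 (4.92 CPM per kb) and Col4a1 (4.59) stood together at the top, with overlapping libraries, and Col6a6 followed at 1.09. In T2D the first place on this scale went to Col27a1 (2.66 CPM per kb), a fibrillar chain best known from cartilage, ahead of Col4a1 (1.68), while Col6a3 was down to 0.650.

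Among the basement membrane chains, Col4a1 was detected in every library. In CPM it read 124, 137, 144 and 159 at E18.5, 236, 687 and 894 at P1, 639, 618 and 133 at P7, and 99.8, 81.4, 78.1, 66.0 and 77.5 at P10. ICR adults ran from 12.7 to 58.7 CPM (median 28.4). P1 and P7 libraries of low stroma stood at 236 and 133 CPM, next to the fetal values, and every adult library lay below every P10 library.

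Col4a2, which the protomer needs, was far lower than its partner outside the high-stroma libraries. It read 13.2, 12.03, 5.57 and 19.8 CPM at E18.5, 90.3, 407 and 511 at P1, 404, 454 and 43.3 at P7, and 8.65, 12.4, 9.86, 0.962 and 6.35 at P10. In adults it ran from 0 to 8.05 CPM (median 0.769). The ratio of Col4a2 to Col4a1, each per kilobase, was 0.587 to 0.754 in the 4 high-stroma libraries and 0 to 0.393 (median 0.0482) in the other 59, so the ranges did not overlap.

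Col18a1, the source of endostatin, followed a course like that of Col4a2. It read 8.23, 21.04, 15.2 and 28.5 CPM at E18.5, 88.1, 164 and 187 at P1, 170, 116 and 18.0 at P7, and 0.611 to 10.2 at P10 (median 4.01). ICR adults held 0.305 to 2.74 CPM. Col15a1 reached 23.21 and 33.98 CPM in the high-stroma P7 libraries against 1.12 in the third, and no library of the 5 adult groups passed 0.490. Group means of Col4a5 and Col4a6, the chains of specialised membranes, were highest at P1 (24.6 and 10.0 CPM) and at most 1.36 CPM in any adult group, while Col4a3 and Col4a4 never passed a group mean of 1.59 CPM.

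**Figure D1:**
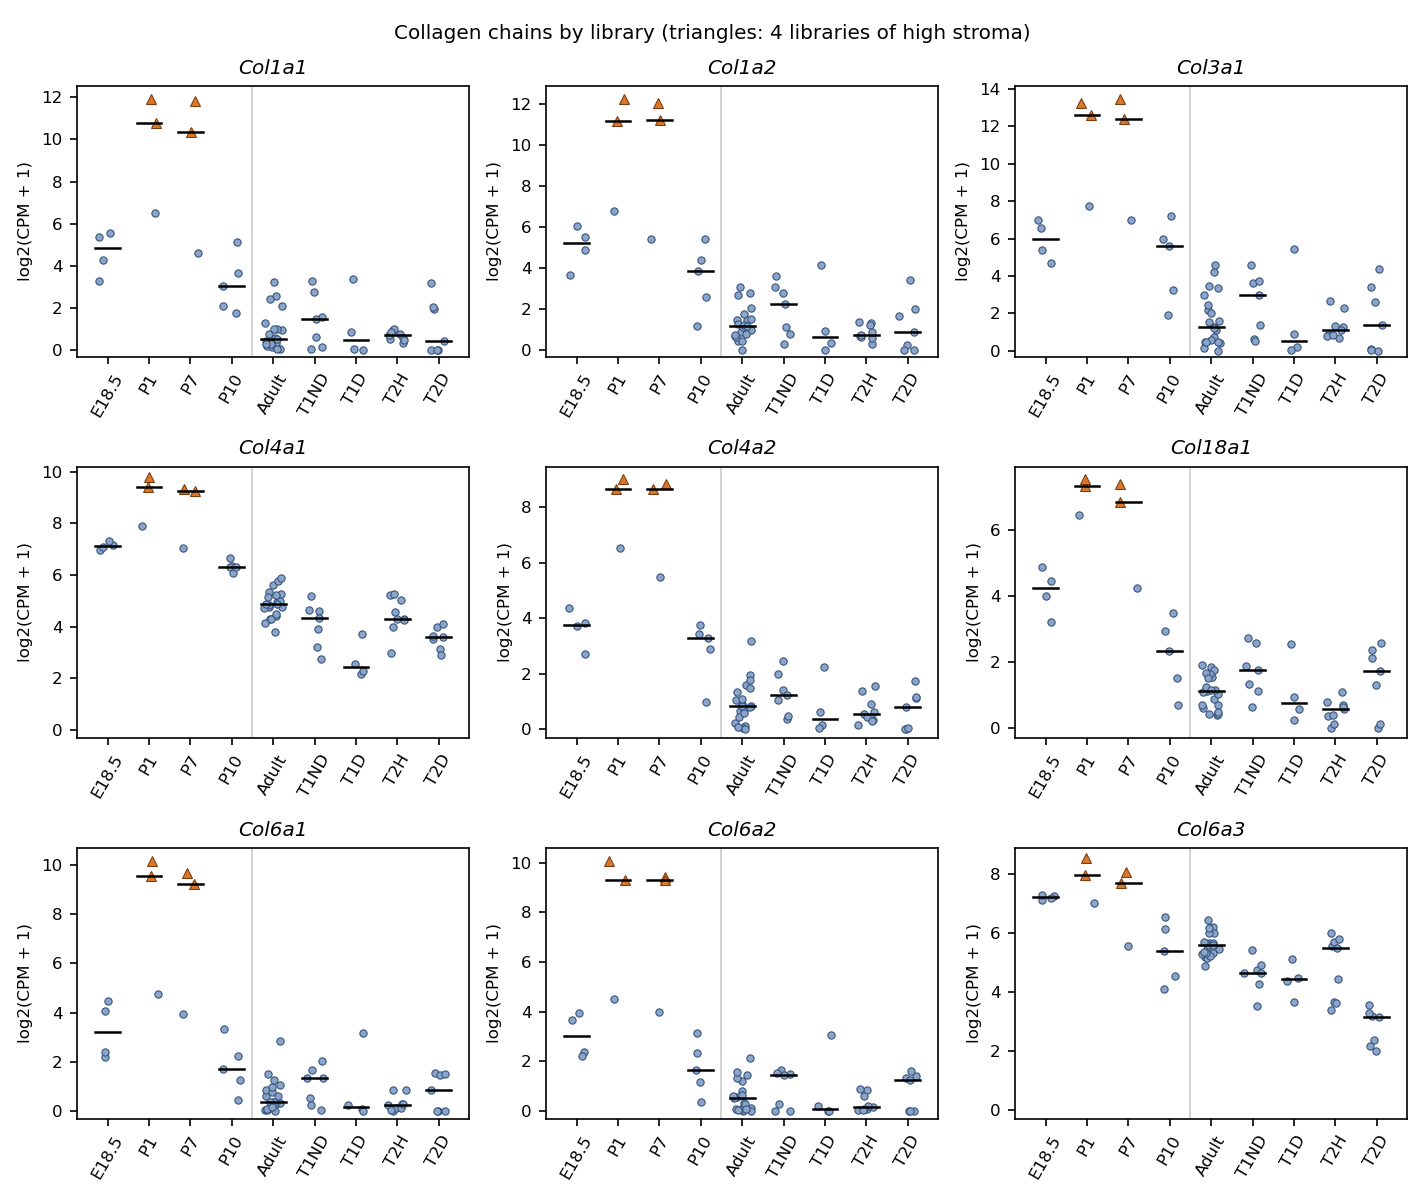
Level of single collagen chains in each of the 63 libraries, as log2(CPM + 1) on the vertical axis, by group on the horizontal axis. Points are libraries, bars are group medians, and orange triangles are the 4 high-stroma libraries: Col4a1 and Col6a3 stay visible in every group, whereas Col4a2 and the fibrillar chains are near 0 in adults.

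The fibrillar chains separated the high-stroma libraries most widely. Their 11 genes together took 1.07 to 2.08% of counts in the 4 and 9.5e-05 to 0.0479% in the other 59. Col3a1 read 95.5, 41.3, 25.1 and 129 CPM at E18.5, 217, 6266 and 9939 at P1, 11510, 5445 and 129 at P7, and 149, 61.1, 48.3, 8.72 and 2.82 at P10. In ICR adults it ran from 0 to 22.8 CPM (median 1.40). The low-stroma libraries of P1 and P7 lay in or near the fetal range.

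Col1a1 (chromosome 11, 94936224 to 94953042) read 46.1, 18.4, 8.67 and 40.7 CPM at E18.5, 91.1, 1738 and 3913 at P1, 3633, 1297 and 23.3 at P7, and 2.45 to 33.7 at P10. Col1a2 (chromosome 6, 4505618 to 4541543) moved with it, at 110, 2296 and 4933 CPM at P1 and 4216, 2420 and 42.4 at P7. Adult medians were 0.4225 CPM for Col1a1 and 1.31 CPM for Col1a2. The type V chains had the same outline: Col5a1 had a median of 8.33 CPM at E18.5, 590 at P1, 750 at P7, 2.52 at P10 and 0.249 in ICR adults. Col2a1, the chain of hyaline cartilage, was listed at 0 in all 3 P7 libraries.

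Type VI chains did not share one course. Col6a3 (chromosome 1, 90766860 to 90844001) read 139, 150, 153 and 146 CPM at E18.5, 127, 249 and 374 at P1, 267, 203.9 and 46.1 at P7, and 69.8, 91.2, 16.1, 41.2 and 22.4 at P10. In ICR adults it ran from 28.4 to 86.0 CPM (median 46.6), so adults and P10 overlapped. Col6a1, needed for every type VI protomer, read 3.60 to 21.1 CPM at E18.5, 26.1, 750 and 1153 at P1, 810, 600 and 14.6 at P7, and 0 to 6.26 in adults (median 0.303).

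The ratio of Col6a1 to Col6a3 per kilobase was 7.25 to 7.59 in the 4 high-stroma libraries and 0 to 1.61 (median 0.0369) in the other 59. Its spread within the 4 was small beside the gap. Col6a2 per Col6a1, by contrast, had a median of 0.793 in both sets. It ran from 0.7395 to 0.918 in the 4 and from 0 to 8.81 in the 53 others in which it could be formed. Col1a2 per Col1a1 was 1.29 to 2.07 in the 4. Over the 55 others in which it could be formed it was 0.277 to 25.5 (median 1.72). Col6a6 (chromosome 9, 105689417 to 105828246), one of the alternatives to Col6a3, read 9.80, 11.8, 23.05 and 23.21 CPM at E18.5 and 19.8 to 33.2 at P10, and 2.30 to 31.2 in ICR adults (median 7.22).

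Other classes held few chains at a measurable level in low-stroma libraries. Col9a2, a fibril-associated chain usually found with cartilage fibrils, read 21.3, 35, 33.2 and 54.2 CPM at E18.5, 26.8, 36.4 and 38.4 at P1, 18.4, 9.84 and 8.07 at P7, and 1.84 to 5.82 at P10. ICR adults held 0.123 to 3.55 CPM. The low-stroma library was the lowest of its age, with 26.8 CPM beside 36.4 and 38.4 at P1 and 8.07 beside 18.4 and 9.84 at P7, a gap much narrower than that of the fibrillar chains.

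Col19a1 (chromosome 1, 24257683 to 24587922), another fibril-associated chain, had its highest values after birth. It read 0.787 to 1.10 CPM at E18.5, 0.781, 1.64 and 1.55 at P1, 6.81, 6.65 and 10.5 at P7, and 13.7, 5.57, 6.17, 13.6 and 14.3 at P10. ICR adults fell back to 0 to 1.21 CPM (median 0.244), below every P7 and P10 library. The highest P7 value was in the low-stroma library.

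**Figure D2:**
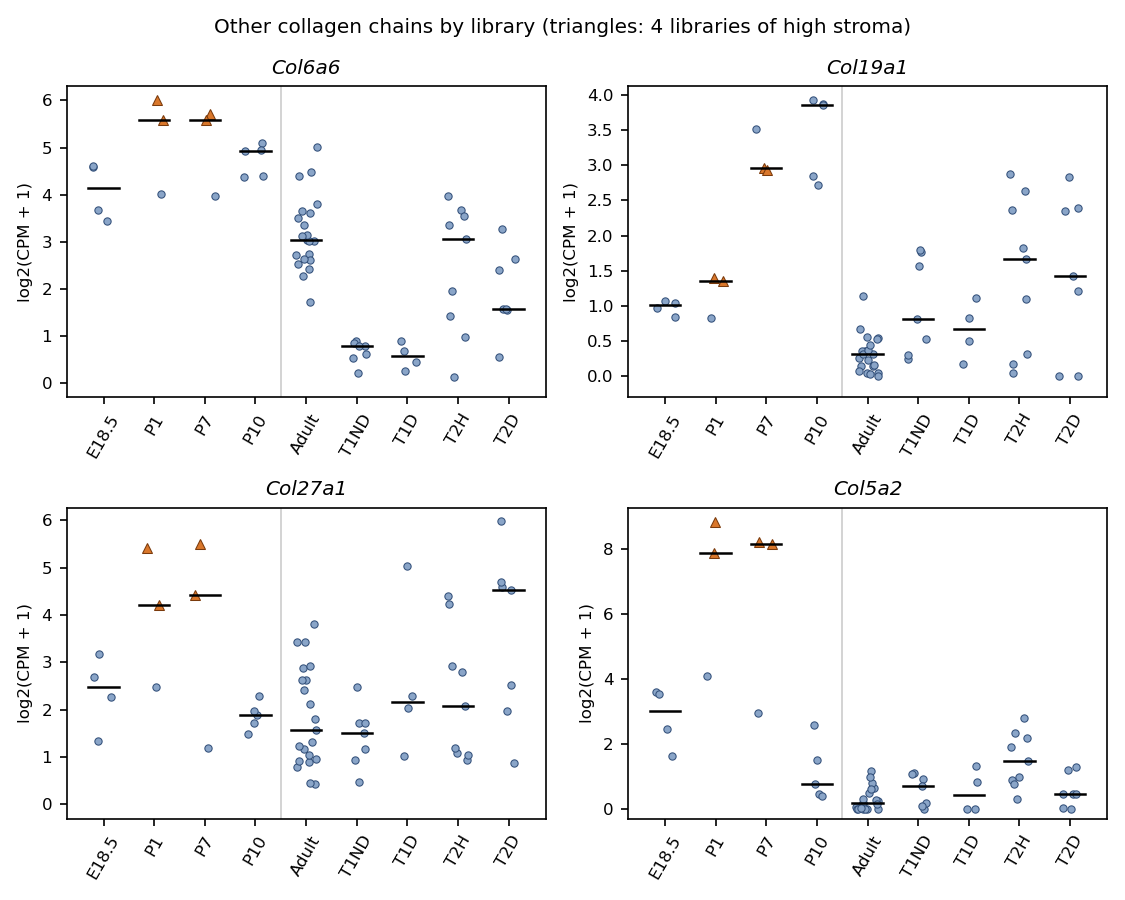
Level of Col6a6, Col19a1, Col27a1 and Col5a2 in each of the 63 libraries, as log2(CPM + 1) on the vertical axis, by group on the horizontal axis. Points are libraries, bars are group medians and orange triangles the 4 high-stroma libraries: Col19a1 has its highest medians at P7 and P10, and Col6a6 lies below 1 CPM in all T1ND and T1D libraries.

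Across the 21 ICR adult libraries, each library's level of 6 chains was set against its summed stromal, endothelial and Schwann cell markers, 18 relations in all, on log2(CPM + 1), with 100000 permutations and Benjamini-Hochberg adjustment over the 18. Fibrillar chains went with stromal and with endothelial markers. Against stromal markers, for Col3a1, Pearson's r was 0.777 (adjusted permutation p = 0.00126) and Spearman's rho 0.703 (0.00756), and r was 0.702 without the 2 libraries farthest from the stromal median. For Col1a1 r was 0.656 and rho 0.566, for Col1a2 0.663 and 0.596, with adjusted permutation p = 0.00237 for either r and 0.0196 and 0.0129 for the rhos. Without the 2 farthest libraries these r values were 0.614 and 0.656. Against endothelial markers r was 0.699 for Col3a1 (adjusted permutation p = 0.0022), 0.610 for Col1a1 (0.011) and 0.543 for Col1a2 (0.022), with rhos of 0.629, 0.631 and 0.494, and 0.507, 0.630 and 0.503 were the r values without the 2 farthest libraries.

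Col4a2 followed both stromal (r = 0.677, rho = 0.662) and endothelial markers (r = 0.732, rho = 0.692), with adjusted permutation p = 0.0022 for each r and 0.00792 and 0.00756 for the rhos. Those r values were 0.741 and 0.730 without the 2 farthest libraries. Col4a1 followed endothelial markers (r = 0.678, adjusted permutation p = 0.0022; rho = 0.596, 0.0129). Its r with stromal markers was 0.265 (0.277) and rho 0.139 (0.551). Without the 2 farthest libraries the endothelial r of Col4a1 was 0.470, and in the 17 libraries extracted on Qiagen columns it was 0.357 (adjusted permutation p = 0.208), which does not pass the test, and 0.671 without the 2 farthest of those 17. The 4 TRIzol libraries are too few for a value. Within the Qiagen libraries, against stromal markers, r was 0.770 for Col3a1, 0.697 for Col1a1, 0.767 for Col1a2 and 0.708 for Col4a2. Against endothelial markers it was 0.814 for Col4a2. The rhos were 0.674, 0.532, 0.738, 0.723 and 0.757 in the same order. That of Col1a1 did not pass (adjusted permutation p = 0.0592), and its r was 0.450 without the 2 farthest libraries. With endothelial markers, r passed for Col1a1 (0.750) and Col1a2 (0.667). Their rhos of 0.554 and 0.537 did not (adjusted permutation p = 0.0589 and 0.0592). For Col18a1, r was 0.434 with stromal markers (adjusted permutation p = 0.0766) over all 21 and 0.693 (0.00527) within the 17. Schwann markers over all 21 gave r = 0.497 for Col4a1 (adjusted permutation p = 0.0396) and 0.467 for Col4a2 (0.0478). The rhos were 0.496 (0.0441) and 0.408 (0.101). Without the 2 farthest libraries these r values were 0.366 and 0.265. Within the 17 they were 0.351 and 0.345, with adjusted permutation p = 0.208 for either. The other chains did not pass with Schwann markers, with r from 0.214 to 0.419. Part of any such relation can come from depth and composition that the summed lists share with the chains, which was not tested.

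**Figure D3:**
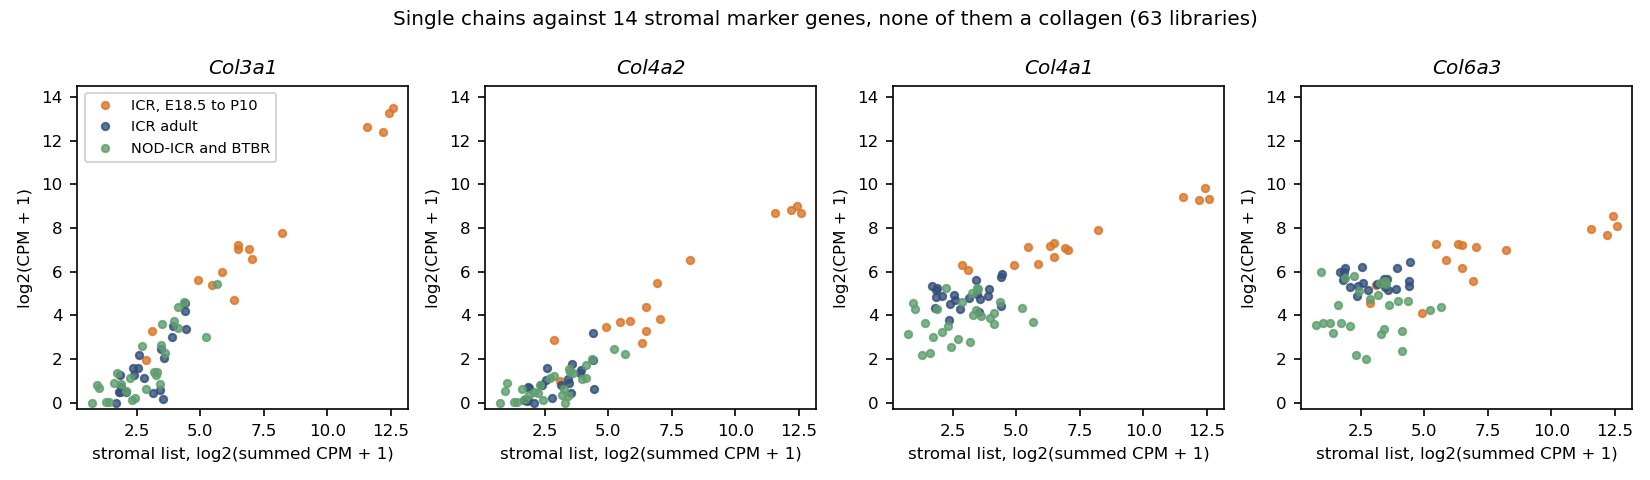
Each panel sets 1 chain, as log2(CPM + 1) on the vertical axis, against the summed CPM of 14 stromal marker genes on a log2 scale on the horizontal axis, for all 63 libraries. Colours mark ICR before adulthood, ICR adults, and the NOD-ICR and BTBR groups together: Col3a1 and Col4a2 lie along a line from the lowest stroma to the 4 high-stroma points at the far right, while Col4a1 and Col6a3 stay above 0 at low stroma.

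Fold changes come from edgeR's quasi-likelihood test over 16092 genes, 43 of them collagen (Col10a1 was too low), with a term for the RNA extraction method and Benjamini-Hochberg adjustment over all genes. A gene was called at an adjusted p under 0.05. These fits scale libraries by trimmed means (TMM) rather than by total counts, so a fitted log2 difference departs from the log2 ratio of CPM. By the mean scaling factors of the groups this shift ran from -0.53 for adult against E18.5 to 0.37 for P1 against E18.5. For single genes it varies, since the extraction term and unequal libraries also enter the fit. The p-values measure the spread between libraries, and the labels do not say in every case that each library came from separate animals. Comparisons in sequence share a group: P1, P7, P10 and E18.5 each enter more than 1, and ICR adults serve as the control of both T1ND and T2H.

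From E18.5 to P1, 18 of 43 members rose and none fell, against 8.63% of all genes called higher and 3.42% lower. The calls were 3 of 8 basement membrane chains, 8 of 11 fibrillar, 3 of 6 type VI, 3 of 9 fibril-associated and 1 of 3 network and anchoring chains. The median over the members was 3.66 on the log2 scale and 0.04 over all genes. Col4a1 had the smallest adjusted p (log2 difference 1.64 ± 0.32 SE, adjusted p = 0.000647), and Col14a1, a fibril-associated chain, rose by 4.30 ± 0.94 (0.00226). Larger differences with wider errors were those of Col5a3 (6.22 ± 1.59), Col12a1 (5.64 ± 1.35), Col6a2 (5.54 ± 1.44), Col5a2 (4.82 ± 1.27), Col5a1 (5.72 ± 1.3), Col3a1 (5.72 ± 1.81), Col1a1 (5.67 ± 1.62), Col1a2 (5.66 ± 1.46) and Col4a2 (4.27 ± 1.19).

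Without the 4 high-stroma libraries, which leaves 1 P1 library, edgeR called none of the members in this comparison, and 2 had an unadjusted p under 0.05. Of all 16557 genes tested then, 0.157% were called higher and 0% lower. Other cell types' markers moved with the full comparison: 11 of 14 stromal, 11 of 13 myeloid and 3 of 5 mesothelial markers were called higher, and 6 of 12 β cell markers lower. The part of the myeloid and mesothelial markers was not tested apart from stroma. Leaving out P1 replicate 3 alone left 4 members called, and leaving out E18.5 replicate 3 or 2 left 8 or 11. Member counts from fits that leave out 1 library are given, here and below, without the count over all genes. Such a drop can therefore not be read as particular to collagen.

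Between P1 and P7, edgeR called none of the members, and 2 had an unadjusted p under 0.05. Over all genes edgeR called 0.0559% higher and 0.0497% lower. DESeq2 called none of the members. In P1 against E18.5 and P10 against P7 it gave Col1a1, Col1a2 and Col3a1 no adjusted p, so it could not call them there. P1 and P7 each held 2 high-stroma libraries and 1 low one. Log2 differences were -0.07 ± 0.35 for Col4a1, 0.02 ± 1.19 for Col4a2, -0.10 ± 1.49 for Col1a1, -0.09 ± 1.35 for Col1a2 and 0.25 ± 1.68 for Col3a1. With the 2 low-stroma libraries alone for these ages, they were -0.24, -0.47, -1.38, -0.79 and -0.16 in the same order, none of them called.

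From P7 to P10, 28 members fell and none rose, while 18.9% of all genes were called lower and 10.5% higher. Lower were 7 of 8 basement membrane chains, 8 of 11 fibrillar, 3 of 6 type VI, 5 of 9 fibril-associated, 2 of 4 transmembrane and 2 of 3 network and anchoring chains and 1 of 2 others. Col4a1 fell by 2.14 ± 0.30 on the log2 scale (adjusted p = 8.63e-07 in edgeR). Col12a1, which decorates type I fibrils, had 72.2, 56.8 and 1.51 CPM at P7 and 0.0233 to 0.117 at P10, a log2 difference of -8.75 ± 1.42. The type I and III chains had differences of -6.81 ± 1.54 (Col1a1), -6.77 ± 1.39 (Col1a2) and -6.22 ± 1.68 (Col3a1), and Col4a2 one of -4.82 ± 1.11. Beside them stood Col5a1 (-7.24 ± 1.25), Col5a2 (-6.70 ± 1.26), Col6a2 (-6.66 ± 1.37), Col6a1 (-6.55 ± 1.33) and Col14a1 (-5.49 ± 0.90). P7 replicates 1 and 2, both of high stroma, carry the same number in their titles, as do P10 replicates 2 and 3, so P7 may hold 2 sources rather than 3. Leaving out either of the P7 pair left 22 or 20 members called.

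In this comparison all 14 stromal and all 13 endothelial markers were called lower, as were 10 of 13 myeloid, 7 of 14 acinar and 3 of 5 mesothelial markers, and 11 of 12 β cell markers were called higher. Without the 4 high-stroma libraries, which leaves 1 P7 library, edgeR called none of the members, and 0% of all genes were called higher and 0.0423% lower. The unadjusted p was under 0.05 for 4 of the members. The part of the 4 libraries' other cells in the drop from P7 to P10 cannot be told apart from age with 1 P7 library left.

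P10 against E18.5 uses none of the high-stroma libraries. Here 3 members fell and 1 rose, against 3.52% of all genes called lower and 3.01% higher. Col6a3 fell by 1.46 ± 0.37 on the log2 scale (edgeR adjusted p = 0.0096), with no P10 library reaching the fetal ones. It was not called without P10 replicate 3 (-1.21, adjusted p = 0.051) or replicate 5 (-1.26, 0.0517), nor with Qiagen libraries alone (-0.78, 0.607). Col12a1 fell by 4.26 ± 1.23 (0.0257). Its call was lost in 6 of the 9 fits that leave out 1 library, with Qiagen libraries alone, with a stromal term (-3.03, adjusted p = 0.134) and without the high-stroma libraries (-4.10, 0.0874). Col19a1 rose by 3.59 ± 1.14 (0.0437), every P10 library lying above every fetal one. Its call was lost in 8 of those 9 fits, with either extraction alone, with no extraction term (3.60, adjusted p = 0.0502) and with a stromal term (3.41, 0.0696). The third that fell was Col9a1, at 0.135 to 0.534 CPM in the fetal libraries and 0 in all 5 at P10. Its call held in all 9 fits that leave out 1 library. It was lost in DESeq2 (-6.13, adjusted p = 0.117), with TRIzol libraries alone (-6.54, edgeR adjusted p = 0.208) and with Qiagen libraries alone (-6.66).

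The remaining type IV, I and III chains did not pass the test between E18.5 and P10. Log2 differences were -0.57 ± 0.28 for Col4a1 (adjusted p = 0.227), -0.52 ± 0.98 for Col4a2, -1.24 ± 1.24 for Col1a1, -1.20 ± 1.13 for Col1a2 and -0.25 ± 1.39 for Col3a1. None of the 14 stromal markers was called. When only these 2 groups were fitted, 12 members were called lower and 2 higher, Col4a1 among those called. Over all genes that fit called 3008 of 13645, against 3.52% lower and 3.01% higher in the fit of all groups.

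From P10 to the ICR adult, 13 members fell and none rose, against 9.98% of all genes called lower and 8.84% higher. The lower chains were 3 basement membrane, 5 fibrillar, 2 type VI and 3 fibril-associated. Col19a1 fell by 5.09 ± 0.67 on the log2 scale (edgeR adjusted p = 4.6e-08) and was called under all 12 settings tried. Col4a1 fell by 1.06 ± 0.20 (6.54e-05) and Col14a1 fell by 2.49 ± 0.53 (0.00036). Col3a1 fell by 3.42 ± 0.88, Col1a1 by 2.79 ± 0.84, Col1a2 by 2.77 ± 0.74, Col5a1 by 2.71 ± 0.75, Col4a2 by 2.39 ± 0.66 and Col9a2 by 2.09 ± 0.59. Beside the fall, 13 of 14 acinar markers were called higher and 4 of 5 mesothelial markers lower, and their part was not tested. Of the 14 stromal markers, 7 were called lower, and their part in these changes was not tested beyond a fit with a stromal term. That fit called 4 members, a smaller share than the 3091 of all 16092 genes called then. Without P10 replicate 1, the P10 library of highest Col1a1 and Col3a1, 7 members were called.

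The longest span, E18.5 to adult, had 23 members lower and 2 higher, against 19.2% and 15.6% of all genes. The lower chains were 6 basement membrane, 7 fibrillar, 3 type VI, 5 fibril-associated, 1 transmembrane and 1 network chain. The median was -2.26 over the members and 0.01 over all genes. Col9a2 fell by 4.72 ± 0.62 on the log2 scale (edgeR adjusted p = 1.47e-08) and Col4a1 by 1.63 ± 0.22 (1.78e-08). Col8a2, a network chain, fell by 4.33 ± 0.84, Col14a1 fell by 3.15 ± 0.60, Col18a1 fell by 3.48 ± 0.66, Col5a2 by 4.55 ± 0.78, Col5a1 by 4.51 ± 0.75, Col1a1 by 4.04 ± 0.88, Col1a2 fell by 3.97 ± 0.78, Col3a1 by 3.67 ± 0.95 and Col4a2 by 2.92 ± 0.72. The 2 that rose were Col20a1 (2.41 ± 0.89), at 0.0230 to 0.974 CPM in fetal and 0.0623 to 4.75 CPM in adult libraries, and Col24a1, which was at 0 in all 4 fetal libraries and 14 of 21 adult ones.

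Both E18.5 and adult libraries are of low stroma, yet 10 of 14 stromal markers were called lower, from a median sum of 0.00841% to 0.000584% of counts. Mesothelial markers were lower (4 of 5), and 13 of 14 acinar markers were higher, from a median of 0.0599% of counts at E18.5 to 6.68% in adults, where the range was 0.0199 to 24%. The part of acinar and mesothelial RNA in the collagen differences was not tested. With a stromal term in the fit, 6 members were called lower and 3 higher. That is a smaller share than the 4591 of all 16092 genes called then. Col9a2, Col4a1, Col5a2 and Col18a1 were called under all 12 settings, the stromal term included, with log2 differences between -4.96 and -4.42 for Col9a2 and between -1.86 and -1.03 for Col4a1.

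The pathway lists over the same span are read against the 19.2% of all genes called lower and 15.6% higher. Of 21 folding and modification genes, 8 fell and 4 rose: the collagen chaperone SERPINH1 fell by 4.001 ± 0.54 on the log2 scale and the prolyl isomerase PPIB by 1.42 ± 0.25, while LEPREL1, a prolyl 3-hydroxylase, rose by 3.57 ± 0.66. Of 13 processing and cross-linking genes 7 fell, among them the procollagen processing enhancer PCOLCE (-5.05 ± 0.54), the peroxidase PXDN that cross-links type IV collagen (-5.10 ± 0.64) and the procollagen protease BMP1 (-1.204 ± 0.18). Of 9 receptors 1 rose and 1 fell, and of 15 breakdown genes 1 rose and 3 fell. Of 15 other basement membrane genes 8 fell, the laminins LAMB1 by 4.45 ± 0.50 and LAMC1 by 2.14 ± 0.25 among them, and 1, LAMA3, rose by 4.50 ± 0.80.

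Non-diabetic NOD-ICR mice (T1ND) were set against ICR adults. In this comparison 4 members were lower and 2 higher, against 4.48% and 9.38% of all genes. Col6a6 gave the widest separation: 2.30 to 31.2 CPM in the adults and 0.153 to 0.847 CPM in T1ND, with no overlap. Its log2 difference was -3.56 ± 0.47 (edgeR adjusted p = 3.26e-08). The 4 T1D libraries, with 0.592, 0.198, 0.370 and 0.849 CPM, lay in or at the edge of the T1ND range, and likewise below every ICR adult.

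Col6a3 was also lower in T1ND, at 10.5 to 42.2 CPM (median 23.9) against 28.4 to 86.0 in adults, a log2 difference of -0.86 ± 0.25 (edgeR adjusted p = 0.0144). The ranges overlapped, and without T1ND replicate 6 the difference was -0.77 and not called (0.053). Col19a1 was higher, 0.186 to 2.46 CPM against 0 to 1.21, by 2.28 ± 0.63 (0.00742). The other 3 called were near the limit of detection: Col9a1 was at 0 in 19 of 21 adult libraries, and Col6a4 and Col13a1 at 0 in 6 of 7 T1ND ones. Among the chains described in every comparison, log2 differences were -0.44 ± 0.19 for Col4a1 (adjusted p = 0.12), 0.78 ± 0.67 for Col4a2, 1.05 ± 0.84 for Col1a1, 1.24 ± 0.74 for Col1a2 and 1.12 ± 0.89 for Col3a1.

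Of the pathway lists in T1ND, 4 of 15 breakdown genes rose, MMP14 by 2.40 ± 0.39 and MMP3 by 4.17 ± 1.04 on the log2 scale. The collagen receptor LAIR1, which is carried by immune cells, rose by 2.56 ± 0.61, LOXL3, a lysyl oxidase, by 4.20 ± 0.67 and the glycosyltransferase COLGALT1 by 0.74 ± 0.13, and LAMA3 fell by 3.89 ± 0.59. Of the folding list 3 of 21 rose, of the processing list 3 of 13, of receptors 2 of 9, and of other basement membrane genes 1 rose and 1 fell. Myeloid markers moved with the comparison: 12 of 13 were called higher, from a median sum of 0.00786% of counts in adults to 0.130% in T1ND. None of 14 stromal markers was called, and their median sum was 0.00103% of counts in T1ND against 0.000584% in adults. The part of the myeloid cells in these differences was not tested.

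In diabetic against non-diabetic NOD-ICR mice, 1 member was lower and none higher, against 0.795% and 0.485% of all genes. Col4a1 read 35.7, 23.6, 19.1, 23.7, 5.75, 8.30 and 13.9 CPM in T1ND and 12.1, 4.88, 3.47 and 3.89 in T1D. Of the T1D libraries 3 lay below all of T1ND and the fourth inside its range. The log2 difference was -1.47 ± 0.29 (edgeR adjusted p = 0.00721), but Col4a1 was not called with Qiagen libraries alone (-1.65, adjusted p = 0.0766) or with only these 2 groups fitted (-1.62, 0.256), with differences of like size. Neither of these fits called any gene, with 16439 and 13595 genes tested. The myeloid list had a median of 0.241% of counts in T1D and 0.130% in T1ND.

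The fibrillar chains in T1D rest on 1 library. Col3a1 read 42.3, 0.148, 0.0231 and 0.847 CPM, and the first library also held the highest stromal sum of the group. Log2 differences were 0.26 ± 1.43 for Col3a1, 0.16 ± 1.32 for Col1a1, 0.29 ± 1.18 for Col1a2 and -0.72 ± 1.05 for Col4a2. Without that library Col3a1 stood at -3.91, Col1a1 at -2.57 and Col1a2 at -2.85, none of them called. No gene of the 5 pathway lists was called.

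BTBR Ob/+ mice (T2H) against ICR adults gave 2 members higher and none lower, against 3.37% and 1.83% of all genes. Col19a1 read 0.0297 to 6.37 CPM in T2H (median 2.17) and 0 to 1.21 in adults, a log2 difference of 3.62 ± 0.61 (edgeR adjusted p = 0.00016). Col5a2, a type V chain, read 0.240 to 5.94 CPM (median 1.75) against 0 to 1.23 (median 0.137), a difference of 3.69 ± 0.80 (0.00512). In both cases the groups overlapped. Of the T2H libraries 8 of 9 were extracted with TRIzol and of the adults 17 of 21 on Qiagen columns. With either extraction alone 1 member was called: Col19a1 missed the threshold with TRIzol libraries alone (3.001, adjusted p = 0.24 in edgeR) and Col5a2 with Qiagen libraries alone (1.51, 0.766), as it did with only the compared groups fitted (3.80, 0.0652).

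The other chains were closer. Log2 differences in T2H were -0.40 ± 0.19 for Col4a1 (adjusted p = 0.206), -0.43 ± 0.70 for Col4a2, -0.57 ± 0.99 for Col1a1, -0.56 ± 0.84 for Col1a2 and -0.87 ± 0.94 for Col3a1. Of 15 breakdown genes 1 rose and 1 fell, of other basement membrane genes 1 fell, 1 folding and 1 processing gene rose, and no receptor was called.

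In obese diabetic Ob/Ob mice (T2D) against Ob/+ (T2H), 3 members rose and 3 fell, against 9.75% of all genes called higher and 8.50% lower. Col6a3 had the clearest change. It read 45.8, 50.6, 62.2, 11.5, 11.4, 44.01, 54.6, 9.46 and 20.8 CPM in T2H and 10.8, 7.89, 3.0, 3.47, 8.03, 8.65 and 4.17 in T2D. The 2 groups overlapped in 1 T2H library, at 9.46 CPM. The log2 difference was -2.51 ± 0.30 (edgeR adjusted p = 1.46e-08), between -2.70 and -2.38 over the 13 settings, and Col6a3 was called in each.

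Within T2H the 4 females held 44.01 to 54.6 CPM of Col6a3 and the 5 males 9.46 to 62.2, so the male range contained the female one. The T2H libraries with 2 copies of the Cre allele, both of males at 53 days, were those at 11.5 and 11.4 CPM. Acinar markers took 21.2 and 26.6% of counts in these and 13.7% in the library at 9.46 CPM, the highest shares of T2H. The library at 20.8 CPM had the lowest, 0.0968%. These contrasts within T2H were not tested. In T2D females held 4.17 to 10.8 CPM of Col6a3 and males 3.0 to 8.65. The change in T2D was called also with a term for sex and with libraries of 1 Cre copy alone. Acinar markers took 0.00246 to 30.5% of counts in T2D (median 3.93%) and 0.0968 to 26.6% in T2H (median 2.35%). Their part in the change was not tested.

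Col4a1 fell by 1.05 ± 0.23 on the log2 scale (adjusted p = 0.000506), from 6.90 to 37.1 CPM (median 18.8) in T2H to 6.45 to 15.96 (median 10.99) in T2D, with overlap, and it was called in 12 of 13 settings, the exception being Qiagen libraries alone (-0.75, adjusted p = 0.664 in edgeR), where 1 T2H library is left. Col14a1 rose by 3.22 ± 0.72 (0.000815), from 0 to 0.566 CPM in T2H to 0.325 to 5.62 in T2D. The other 3 called, Col9a1, Col4a6 and Col13a1, reached at most 1.14 CPM in any library of either group. Col9a1 was at 0 in all 9 T2H libraries and 5 of 7 T2D ones.

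Col27a1, which led T2D per kilobase, read 22.1, 0.839, 2.93, 23.1, 25.01, 62.8 and 4.72 CPM there and 0.921 to 20.2 (median 3.25) in T2H. Of the 7 T2D libraries 4 lay above every T2H library, 2 inside their range and 1 below it. The difference of 1.5 ± 0.62 did not pass the test (adjusted p = 0.0834). Log2 differences were 0.14 ± 0.86 for Col4a2, 1.58 ± 1.14 for Col1a1, 1.22 ± 1.00 for Col1a2 and 1.63 ± 1.14 for Col3a1, none of them called.

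Against 9.75% of all genes called higher and 8.50% lower, 3 of 21 folding genes rose in T2D and 1 fell, and of 15 breakdown genes 2 rose: the prolyl hydroxylases P4HA2 rose by 1.52 ± 0.22 on the log2 scale and P4HA1 by 0.68 ± 0.17, and the lysyl hydroxylase PLOD3 by 0.73 ± 0.18. The proteases MMP14 (2.01 ± 0.52) and MMP2 (3.72 ± 1.10) and the integrin subunit ITGB1 (0.76 ± 0.17) also rose, and LAMA3 fell by 1.80 ± 0.57. Of 13 processing genes 1 rose and 2 fell. Of the β cell markers 8 of 12 were called lower, of myeloid markers 4 of 13 higher and of stromal markers 1 of 14 higher. Their part in the collagen changes was not tested.

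**Figure D4:**
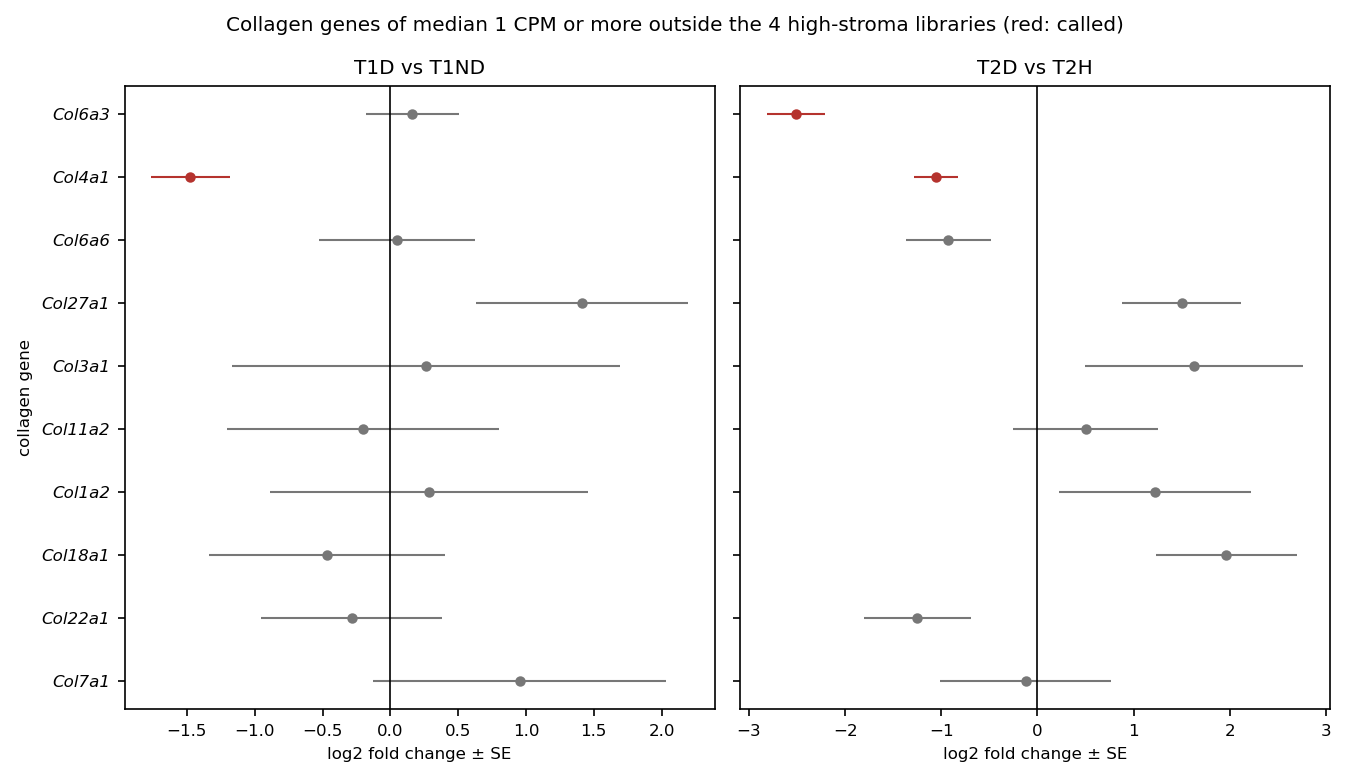
Log2 difference on the horizontal axis, with the standard error as bars, for the 10 collagen genes whose median over the 59 low-stroma libraries reached 1 CPM, in T1D against T1ND (left) and T2D against T2H (right). Red points passed the test: Col4a1 lies below 0 in both panels, and Col6a3 lies at -2.51 in T2D and at 0.16 in T1D.

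The change in T2D against T2H was set against that in T1D against T1ND in 1 contrast of the same fit. This difference was called for 1 member and was lower there, against 1.09% of all genes called lower and 1.05% higher. It was Col6a3, with -2.67 ± 0.45 on the log2 scale (edgeR adjusted p = 0.000111), from a change of -2.51 ± 0.30 in T2D and 0.16 ± 0.34 in T1D. It was called in all 12 settings. For Col4a1 the difference was 0.42 ± 0.36 (adjusted p = 0.63), so its lower level in both forms of diabetes was not shown to differ in size.

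Sex was examined within the 21 ICR adults after their values had been seen. In CPM Col6a6 was higher in the 11 females, 7.11 to 31.2 (median 11.2), than in the 10 males, 2.30 to 7.66 (median 5.16). The 4 TRIzol libraries of the adults are all female and include 31.2 and 21.3 CPM, and the 7 Qiagen females held 7.11 to 19.9 CPM. In a fit of these libraries alone, with a term for extraction, edgeR called none of the 20 members tested, and 3 had an unadjusted p under 0.05. Of 12901 genes, 0.814% were called higher in males and 1.36% lower. Col6a6 differed by -0.71 ± 0.23 on the log2 scale in males (adjusted p = 0.0938) and Col27a1 by 1.89 ± 0.54 (0.0599). Without Adult replicate 3, 2 members were called.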

How the data were processed

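Values are expected counts per gene that the authors deposited as 1 table, made per the submitters' processing notes with bcl2fastq 2.20.0.422, Bowtie 1.2.2 and RSEM 1.3.0 on mm10, from SMART-Seq v4 and Nextera XT libraries that keep no strand. Of the values, 48.55% are not whole. They were rounded and fitted in R 4.3.3 with edgeR 4.0.16: TMM scaling, its default filter on low counts by group, a term for TRIzol against Qiagen extraction, robust quasi-likelihood tests of 9 groups in 1 fit of 63 libraries, and adjustment over 16092 genes at 0.05. The fit was tested on simulated data.

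Levels are CPM from total expected counts. Levels per kilobase use the longest protein-coding transcript, positions and sequence come from RefSeq, GRCm38.p6, the same assembly as mm10, and exons and lengths from GENCODE. Members with a group mean of 5 CPM or more (31 of 44) are described by group. Each comparison names, besides Col1a1, Col1a2, Col3a1, Col4a1 and Col4a2, the called members ranked by p up to 8 and 3 called genes at most from each pathway list. Single members named beyond these, and the comparison of sexes, were chosen after their values were seen. The members and lists were chosen with earlier results of these data known.

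The alternatives were DESeq2 1.42.0, other scaling and filters, each extraction alone, no extraction term, only the compared groups fitted, a stromal term, and each library left out in turn. Those fits of 62 libraries keep the genes and the dispersion trend of the full fit. Their counts of called members are given without the counts over all genes. Fits without the 4 high-stroma libraries, with a term for sex in adult groups alone, and of libraries with 1 Cre copy alone were added after seeing the data. No libraries of the same group looked like duplicates: the closest pair, Adult 4 and 5, had a median chi-square per gene of 4.24. Pairs across groups were not compared, Adult 10 and T2D 6, whose titles share a number, among them.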

Additional observations from a re-analysis of the deposited data

Results flagged for a closer look

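In the 102 sets of libraries examined, 12 had 1 library far from the others of its group by Dixon's criterion. Chance alone gives about 1 in 20 only for values with a normal distribution. A set at 0 in all but 1 library meets the criterion by itself, and the chains examined include members called above. So 12 of 102 cannot be set against that rate. In the first T1D library Col3a1 stood at 42.34 CPM with the next at 0.847, and Col6a1 at 8.12 CPM with the next at 0.194. The other 10 are at low levels. Col9a1 read 0.364 CPM in T1ND 7 and 0.93 in T2D 5. Col13a1 read 0.03137 CPM in T1ND 1, 1.143 in T2H 1 and 0.02409 in T2D 7. Col4a6 read 0.7404 CPM in T1ND 6, 0.02592 in T1D 1 and 0.8102 in T2D 4. Col6a4 read 0.1608 CPM in E18.5 1 and 0.1015 in T1ND 2. Of these low values, 5 come from groups in which every other library was at 0 and lie between 0.0241 and 0.161 CPM. Between the 2 forms of diabetes, the change of Col6a3 differed by -2.673 on the log2 scale in the test of the difference itself.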

How the results depend on the processing

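No paired analysis was possible because the labels give the groups no shared replicate numbers. Beside the reported counts of called members (P1 against E18.5 18, P10 against P7 28, P10 against E18.5 4, adult against P10 13, adult against E18.5 25, T1ND against adult 6, T1D against T1ND 1, T2H against adult 2, T2D against T2H 6, difference of the diabetic changes 1), DESeq2 called 8 in adult against P10 (3282 of 16092 genes), 16 in adult against E18.5 (5567) and 2 in the difference (556). In both adult comparisons DESeq2 gave Col1a1, Col1a2 and Col3a1 no adjusted p, so it could not call them. Their DESeq2 log2 differences were -2.80, -2.77 and -3.43 in adult against P10, close to those of edgeR. With Qiagen libraries alone the counts were 0 for P1 against E18.5, 2 for P10 against P7, 0 for P10 against E18.5, 16 for adult against E18.5, 0 for T1D against T1ND, 1 for T2H against adult and 1 for T2D against T2H, where 1 T2H library is left. Over all genes the Qiagen fit called 358 of 16439 in P10 against P7 and 0 in T1D against T1ND. E18.5, P1 and T2H hold 1 Qiagen library each. Where a comparison uses any of these groups, its Qiagen count of members is no result about collagen genes in particular. With TRIzol libraries alone the counts were 1 for adult against P10 (1195 of all 16612 genes), 11 for adult against E18.5 (3231) and 1 for T2H against adult (93). With only the compared groups fitted they were 18 for P10 against P7 (1656 of 14277 genes) and 14 for P10 against E18.5 (3008 of 13645). In the adult groups they were then 0 for T1D against T1ND (0 of 13595), 1 for T2H against adult (672 of 13401) and 3 for T2D against T2H (1293 of 13069). With a stromal term they were 0 for P1 against E18.5 and for P10 against P7. Over all genes that fit called 29 and 24 of 16092 in these 2 comparisons. Those 0s are therefore no result about collagen genes in particular. With the same term the counts of members were 4 for adult against P10, 9 for adult against E18.5 and 3 for the difference. Over all genes, too, the difference then had more calls than in the reported fit. With no extraction term the difference had 2 (288 of 16092 genes) and the comparison of sexes 1, against 0 reported. Without the 4 high-stroma libraries P1 against E18.5 and P10 against P7 had 0. Leaving out 1 library gave 4 to 20 in P1 against E18.5 (4 without P1 3, 8 without E18.5 3, 11 without E18.5 2), 1 to 3 in P10 against E18.5 (1 without P10 3 or P10 5, 2 without E18.5 1 or E18.5 2), 7 to 15 in adult against P10 (7 without P10 1, 8 without P10 2), 3 to 7 in T1ND against adult (3 without T1ND 6), 1 to 2 in the difference (2 without T2H 3, T1ND 3, T1ND 4 or T2D 1) and 0 to 2 in the sexes (2 without Adult 3, 1 without Adult 16 or 20). The calls of Col6a3 in T2D and in the difference, Col6a6, Col6a3 and Col19a1 in T1ND, Col19a1 in adults against P10, and Col9a2, Col4a1, Col5a2 and Col18a1 in adults against E18.5 held in every setting run other than single libraries left out.

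Log2 differences of single chains that changed sign were these; the cause was not tested. With Qiagen libraries alone, P7 against P1 gave 2.65 for Col1a1, 3.28 for Col1a2 and 0.618 for Col4a1, T1D against T1ND -2.58, -2.86 and -3.93 for Col1a1, Col1a2 and Col3a1, T2H against adult 0.26, 0.691 and 1.14 for Col1a2, Col3a1 and Col4a2, P10 against E18.5 0.096 for Col3a1, T2D against T2H -0.395 for Col4a2 and P1 against E18.5 -2.47 for Col5a3, and the r of Col4a1 with stromal markers was -0.095. With TRIzol libraries alone, P7 against P1 gave 0.596 and 0.455 for Col1a1 and Col1a2, and T2D against T2H -0.313, -1.09 and -0.874 for Col1a1, Col1a2 and Col4a2. With no extraction term, T1D against T1ND gave -0.103 and -0.087 for Col1a1 and Col1a2, and P7 against P1 0.051 for Col1a2. With only the compared groups, P7 against P1 gave 1.58, 1.83 and 0.226 for Col1a1, Col1a2 and Col4a1, T1D against T1ND -2.53, -2.83 and -3.89 for Col1a1, Col1a2 and Col3a1, T2D against T2H -0.575 and -0.629 for Col1a2 and Col4a2, and the difference -0.253 for Col1a2. With a term for sex, T2H against adult gave 0.003 for Col1a1. With a stromal term, P1 against E18.5 gave -0.517, -0.059, -1.24, -0.467, -0.181 and -0.287 for Col1a1, Col1a2, Col3a1, Col5a1, Col5a2 and Col6a2, P10 against P7 1.3, 0.331, 1.83, 0.277, 0.242 and 0.361 for Col1a1, Col1a2, Col3a1, Col5a1, Col6a1 and Col6a2, P10 against E18.5 0.426, 0.086, 1.09 and 0.563 for Col1a1, Col1a2, Col3a1 and Col4a2, adult against E18.5 0.038 for Col3a1, T1D against T1ND -0.018, -0.205 and -0.34 for Col1a1, Col1a2 and Col3a1, T2H against adult 0.639, 0.276, 0.696 and 0.34 for Col1a1, Col1a2, Col3a1 and Col4a2, T2D against T2H -0.159 and -0.524 for Col3a1 and Col4a2, and the difference -0.053 for Col4a2. Without the 4 high-stroma libraries, P7 against P1 gave -0.163 and -0.473 for Col3a1 and Col4a2, and P1 against E18.5 -2.63 for Col5a3. Leaving out 1 library, P7 against P1 ran from -1.90 to 0.928 for Col1a1, -1.41 to 0.903 for Col1a2, -0.887 to 0.969 for Col3a1, -0.399 to 0.24 for Col4a1 and -0.442 to 0.466 for Col4a2. P10 against E18.5 ran from -1.02 to 0.11 for Col3a1. T1D against T1ND ran from -2.57 to 0.80 for Col1a1, -2.85 to 0.812 for Col1a2 and -3.91 to 0.807 for Col3a1, each lowest without T1D 1. T2H against adult ran from -0.879 to 0.272 for Col4a2. T2D against T2H ran from -0.089 to 1.55 for Col1a2 and -0.66 to 0.583 for Col4a2, each lowest without T2D 7, and the difference from -0.167 to 3.73 for Col1a2. None of these chains was called in the comparison named under the setting given. Chains of under 1 CPM rest on few counts, and no difference there is detectable at this depth unless it is large.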
